A study of Oryza sativa with 9 samples.

Results

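Of the 31263 loci in the deposited table, 100 had mean transcript levels in the seeds of 1 rice line at least 3 times those in both other genotypes. They were chosen by group means of 3 libraries, in RPKM, read numbers per length of transcript and per total of mapped reads. The mean in the line pHL8042/EM1084 had to be at least 5 RPKM, at least 3 times the wild type mean and at least 3 times the EM1084 mean. OsTudor-SN itself (LOC_Os02g32350) was left out by name, and it did not meet the thresholds. The members are 0.320% of all loci and 1.32% of the 7593 loci with a mean of at least 5 RPKM in that line. Because these values chose the members, their height in pHL8042/EM1084 is described below without a test.

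Developing rice seeds were sampled at 10 to 14 days after flowering from plants kept at 27 °C under 12 h of light and 12 h of darkness, with 3 biological repeats of each genotype. The genotypes were the wild type (WT), the mutant EM1084 with the change E503K in its Tudor-SN protein, and pHL8042/EM1084, a transgenic of EM1084 that carries a wild type OsTSN copy and is called the complemented line here. The mutant allele is thus shared by EM1084 and the complemented line. All complemented libraries carry the label of a single transgenic, and the sample labels do not give whether they share a transformation event. Effects of the transgene and of other changes in that line cannot be told apart. The promoter that drives the construct was not given in the sources used here.

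Tudor-SN is a conserved RNA-binding protein made of staphylococcal nuclease-like domains and a Tudor domain. In rice endosperm it is known for taking part in the transport of storage protein mRNAs to particular regions of the endoplasmic reticulum. Adding a wild type copy to a mutant is the usual test of whether a phenotype comes from that mutation, and loci that stand apart in the complemented line but not in the mutant differ from both reference points of such a test. The loci carry MSU identifiers and positions only, with no descriptions. None of the identifiers occurs in the RefSeq gene table at hand (assembly ASM3414082v1), so the members are given by identifier and position, without gene names or roles.

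Mapped reads derived from the steps of the RPKM values ran from 5778627 to 10551055 in WT, from 12805472 to 15630870 in EM1084 and from 17022681 to 18449248 in the complemented line. Even numbers made up 58.6% to 72.4% of the derived read numbers from 1 to 20, so a common factor in the reads of low loci cannot be told apart from single reads, and low read numbers and floors carry that limit. A single read on a transcript of 1 kb was therefore worth 0.0948 to 0.173 RPKM in WT and 0.0542 to 0.0587 RPKM in the complemented line. OsTudor-SN, the gene that was mutated and then added back, had 92.3 ± 4.73, 213 ± 7.51 and 368 ± 20.3 RPKM in these 3 groups. After median-of-ratios scaling of the libraries its means were 156, 139 and 319. The order of WT and EM1084 at this gene thus depends on the scaling. The 8 listed endosperm storage loci summed to between 130493 and 222923 RPKM in every library, so the labelled tissue carried its defining transcripts. The 10 listed green tissue loci summed to at most 8.35 RPKM in any library. The 8 embryo and aleurone loci summed to 1323 to 1459 RPKM in WT, 1595 to 1894 in EM1084 and 1702 to 2140 in the complemented line. Within that list the loci went in opposite directions. LOC_Os03g49190 had means of 66.5, 986 and 876 RPKM in this order of genotypes, LOC_Os04g46200 had 113, 643 and 781, and LOC_Os01g68370 had 1.07, 3.81 and 3.01. All other loci of the list were lower in EM1084 and the complemented line than in WT, such as LOC_Os05g28210 with 500.0, 87.2 and 129. The 11 heat shock loci summed to 60.9 to 68.6, 256 to 330 and 307 to 384 RPKM in the same order, and 3 alpha-amylase loci to at most 9.03 RPKM. Among the heat shock loci LOC_Os01g04370 had the highest mean in each genotype, at 19.0, 160 and 213 RPKM. Not all of them followed the sum: LOC_Os03g60620 had 18.2, 12.1 and 21.9 RPKM, and LOC_Os01g04380 had 0.290, 13.5 and 0.510. No member belongs to any of these lists, and their part in the members' levels was not tested. In bulk seed RNA, fewer cells of a type and less RNA per cell cannot be told apart.

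The members took a small part of the library in every genotype, and a larger one in the complemented line. Their reads made up 0.0977% ± 0.0034 of the reads in listed loci in WT (SD, n = 3). The share was 0.126% ± 0.00061 in the mutant and 0.577% ± 0.026 in the complemented seeds. The 4 most abundant members held 41.0% to 42.4% of the members' reads in the complemented libraries. Levels in the complemented line ran from 5.05 to 663 RPKM with a median of 10.6 RPKM. Of the 100 members 46 had a mean below 10 RPKM, 29 lay from 10 to below 20, 16 from 20 to below 50, 3 from 50 to below 100, and 6 at 100 or more. The complemented mean was at least 5 times the higher of the other means at 45 members, at least 10 times at 18 and at least 20 times at 9, counting the 2 loci at 0 in both other genotypes.

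**Figure D1:**
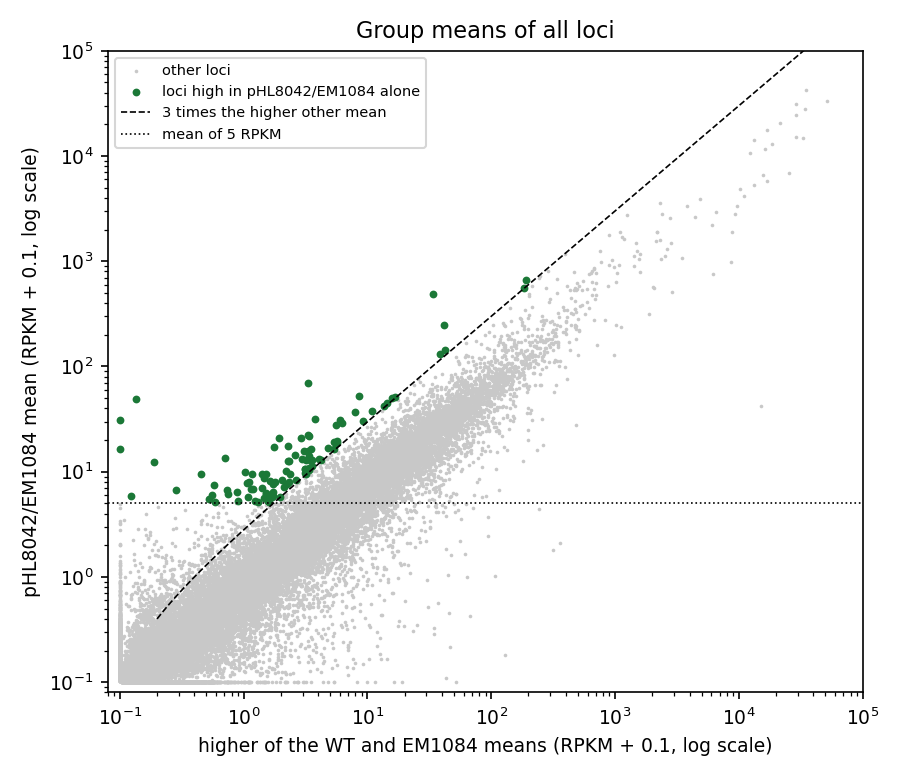
Each point is 1 locus, with the higher of the WT and EM1084 means on the x axis and the complemented (pHL8042/EM1084) mean on the y axis, both in RPKM + 0.1 on log scales. The 100 members (green) lie above the level of 5 RPKM and above 3 times the higher other mean, and the 2 members at the left edge were listed at 0 in both other genotypes.

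All 3 complemented libraries lay above all 6 other libraries at each of the 100 members, a pattern that the rule nearly imposes and that 13.2% of the 7593 loci with a complemented mean of at least 5 RPKM showed. The narrowest gap was at LOC_Os06g01870, where the lowest complemented library was 1.28 times the highest other library. At 96 members this ratio was at least 2, or the other libraries were all at 0. Just inside the ratio threshold lay LOC_Os01g45470, LOC_Os02g26700 and LOC_Os03g19390, with complemented means 3.03, 3.05 and 3.06 times the higher other mean. Just outside lay LOC_Os11g31330, LOC_Os02g25860 and LOC_Os02g10470 with 2.99, 2.97 and 2.96 times. At the level threshold, LOC_Os02g33420, LOC_Os05g37950 and LOC_Os09g37200 had means of 5.05, 5.06 and 5.09 RPKM, and LOC_Os03g06400, LOC_Os03g43100 and LOC_Os09g36120 were left out at 4.92, 4.80 and 4.73 RPKM.

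How far the complemented libraries resembled each other was described by choosing the loci without 1 of them and reading the library left out. Of 108 loci chosen without complemented library 1, 77 met the thresholds in that library alone (71.3%, against 1.11% of loci with a mean of at least 5 RPKM in the other 2 libraries). Without library 2 the count was 84 of 103 loci (81.6% against 1.21%), and without library 3 it was 89 of 100 (89.0% against 1.43%). The library left out lay above all 6 WT and EM1084 libraries at 107 of 108, 103 of 103 and 100 of 100 loci, against 16.1%, 18.2% and 20.6% of the same background loci. The WT and EM1084 libraries served in both the choice and the reading, and the 3 complemented libraries carry the same line label. Those 3 libraries correlated at 0.982 to 0.988 on the log2 scale, so high shares were largely given beforehand. The shares describe agreement among libraries of 1 line label, and no support for the members is drawn from them. The level left out was a median of 0.879, 0.997 and 1.01 times the mean of the other 2 complemented libraries, and at its lowest 0.344, 0.448 and 0.598 times. Library 1 was also the lowest complemented library at 52 of the 100 members and at 58.5% of the 7593 loci.

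**Figure D2:**
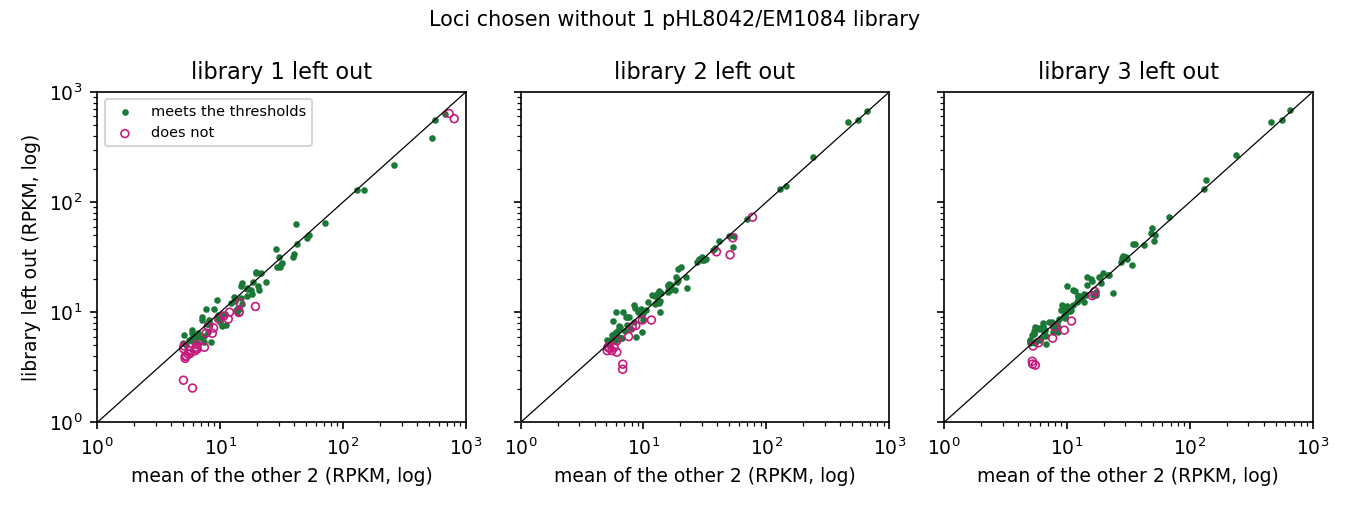
Each panel shows the loci chosen without 1 complemented library, with the mean of the other 2 on the x axis and the library left out on the y axis (RPKM, log scales), and a line of equality. Filled green points met the thresholds in the library left out (77 of 108, 84 of 103 and 89 of 100), and open points did not.

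Among the 100 members, 19 had means under 1 RPKM in both other genotypes. Their complemented means ran from 5.09 to 48.8 RPKM with a median of 6.57 RPKM. LOC_Os03g02470 (chromosome 3, 887171 to 889518, minus strand) was listed at 0 in all 6 WT and EM1084 libraries. Its complemented libraries read 28.3, 31.9 and 31.8 RPKM, from 847, 975 and 898 reads. Setting 3 reads over each group as the floor, this was at least 433-fold higher than WT and at least 739-fold higher than EM1084. LOC_Os10g24004 (chromosome 10, 12302907 to 12303708, minus strand) was also at 0 in all 6 libraries and stood at 16.5, 17.8 and 15.2 RPKM in the complemented line, from 239, 263 and 207 reads. By the same floor it was at least 113-fold higher than WT and at least 192-fold higher than EM1084. These were the only 2 members at 0 in all 6 libraries, and such floors cover counting error only.

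LOC_Os07g06834 (chromosome 7, 3339384 to 3340631, plus strand) read 63.4, 38.8 and 44.1 RPKM in the complemented line, with no read in WT and 2 reads in 1 EM1084 library. Against WT it was at least 519-fold higher, and among the complemented libraries its highest value was 1.63 times its lowest. LOC_Os02g45040 (chromosome 2, 27296970 to 27300115, minus strand) was the steadiest of this class that was named, at 12.2, 11.9 and 12.5 RPKM. It had 3 reads in WT, all in 1 library, and 4, 6 and 2 reads in EM1084, where its mean was 0.0886 ± 0.0435 RPKM. LOC_Os10g39150 (chromosome 10, 20893498 to 20895220, plus strand) read 13.1, 14.7 and 12.5 RPKM in the complemented line and 0.688, 0.784 and 0.359 RPKM in WT. It was listed at 0 in every EM1084 library, which puts the complemented level at least 188-fold above EM1084. LOC_Os01g35330 (chromosome 1, 19549142 to 19550352, minus strand) had 2 to 4 reads in each WT and EM1084 library and 145, 228 and 169 reads in the complemented line, where it stood at 9.45 ± 2.03 RPKM. At the 6 loci described here the WT and EM1084 values rested on few reads or none.

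No WT read was found at 11 members, and no EM1084 read at 3. At the loci without WT reads, the complemented level was at least 16.8-fold higher than WT at LOC_Os11g02369 and at least 519-fold higher at LOC_Os07g06834, with the other loci between these bounds. Because WT had the fewest mapped reads, these bounds are looser than those against EM1084.

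A further 33 members had a WT mean under 1 and an EM1084 mean of at least 1 RPKM. The medians over this class were 0.551 RPKM in WT, 1.84 in EM1084 and 9.38 in the complemented line. LOC_Os10g42800 (chromosome 10, 23083220 to 23086585, minus strand) stood out by its level. It read 1.34, 1.02 and 0.613 RPKM in WT, 2.90, 3.31 and 3.51 in EM1084, compared with 65.0, 70.2 and 73.8 in the complemented line, a mean 21.5 times that of EM1084. The complemented libraries differed from each other by less than the distance to any other library. LOC_Os02g36670 (chromosome 2, 22135516 to 22136944, minus strand) read 23.2, 24.6 and 14.9 RPKM in the complemented line against 1.84 ± 1.37 RPKM in EM1084 and 0.880 ± 0.607 in WT. Complemented library 3 was lower than the other two, although still above the highest EM1084 library at 3.08 RPKM. The opposite class, with an EM1084 mean under 1 and a WT mean of at least 1 RPKM, held 8 members with complemented means from 5.06 to 12.5 RPKM.

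The other 40 members had means of 1 RPKM or more in all genotypes, with complemented means from 5.05 to 663 RPKM, and this class held the most abundant loci. Their complemented mean was a median of 3.54 times the higher other mean. In the class under 1 RPKM in both other genotypes it was 12.8 times, leaving out the 2 loci at 0 in both. The classes are cut on the other means, and every complemented mean is at least 5 RPKM. This contrast is therefore largely fixed by the class limits, and nothing is drawn from it. LOC_Os05g26440 (chromosome 5, 15372629 to 15373075, plus strand) was the highest member. It read 64.9, 54.4 and 48.0 RPKM in WT, 202, 185 and 182 in EM1084, against 637, 669 and 683 in the complemented line, 3 levels without overlap. It lies 33.8 kb from LOC_Os05g26386, one of the loci in the endosperm storage list, whose levels were 51664 ± 10809, 19880 ± 2496 and 33076 ± 8774 RPKM in WT, EM1084 and the complemented line.

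LOC_Os02g26700 (chromosome 2, 15676223 to 15679689, minus strand) read 179, 195 and 176 RPKM in WT, 154, 155 and 146 in EM1084, compared with 557, 563 and 557 in the complemented line. Its complemented values differed by 1.01 times at most, the tightest among the 10 most abundant members along with LOC_Os08g10510. Under median-of-ratios scaling it no longer met the thresholds. LOC_Os06g30280 (chromosome 6, 17470732 to 17471497, minus strand) had the widest separation among the 4 most abundant members. It read 31.7, 38.0 and 31.2 RPKM in WT, 22.9, 20.7 and 27.7 in EM1084, against 381, 531 and 536 in the complemented line, a mean 14.4 times that of WT and 20.3 times that of EM1084. LOC_Os03g19220 (chromosome 3, 10804093 to 10806772, minus strand) followed the same order of genotypes, with 41.4 ± 6.98 RPKM in WT, 22.3 ± 2.13 in EM1084 and 246 ± 26.3 in the complemented line. In both loci EM1084 was the lowest genotype.

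LOC_Os06g17290 (chromosome 6, 10013741 to 10017979, minus strand) stood at 27.6 ± 2.96, 42.0 ± 3.53 and 143 ± 15.1 RPKM in WT, EM1084 and the complemented line. LOC_Os08g10510 (chromosome 8, 6170078 to 6175798, minus strand) read 10.99, 9.71 and 10.9 RPKM in WT, 39.1, 37.0 and 38.8 in EM1084, compared with 130, 132 and 130 in the complemented line. Its 3 groups lay far apart while their SD was at most 1.13 RPKM. LOC_Os12g08260 (chromosome 12, 4209130 to 4213475, plus strand) stood at 5.27 ± 0.945, 8.47 ± 0.558 and 52.4 ± 4.65 RPKM. LOC_Os09g32290 (chromosome 9, 19272307 to 19275775, minus strand) stood at 5.88 ± 2.18, 16.7 ± 1.60 and 51.3 ± 4.45 RPKM. LOC_Os01g09430 (chromosome 1, 4800247 to 4802179, plus strand) stood at 9.24 ± 0.965, 15.6 ± 1.03 and 49.7 ± 2.64 RPKM. LOC_Os09g06950 (chromosome 9, 3355804 to 3356603, plus strand) was lower in the other genotypes for its level, with 2.21 ± 0.848 and 3.69 ± 1.20 RPKM against 31.5 ± 5.25. In RPKM as deposited, the EM1084 mean of each of these 6 loci lay above WT. After median-of-ratios scaling it lay below WT at LOC_Os06g17290, LOC_Os01g09430, LOC_Os12g08260 and LOC_Os09g06950, with log2 differences of -0.75, -0.57, -0.60 and -0.45. With that scaling LOC_Os06g17290 and LOC_Os01g09430 also no longer met the membership thresholds.

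**Figure D3:**
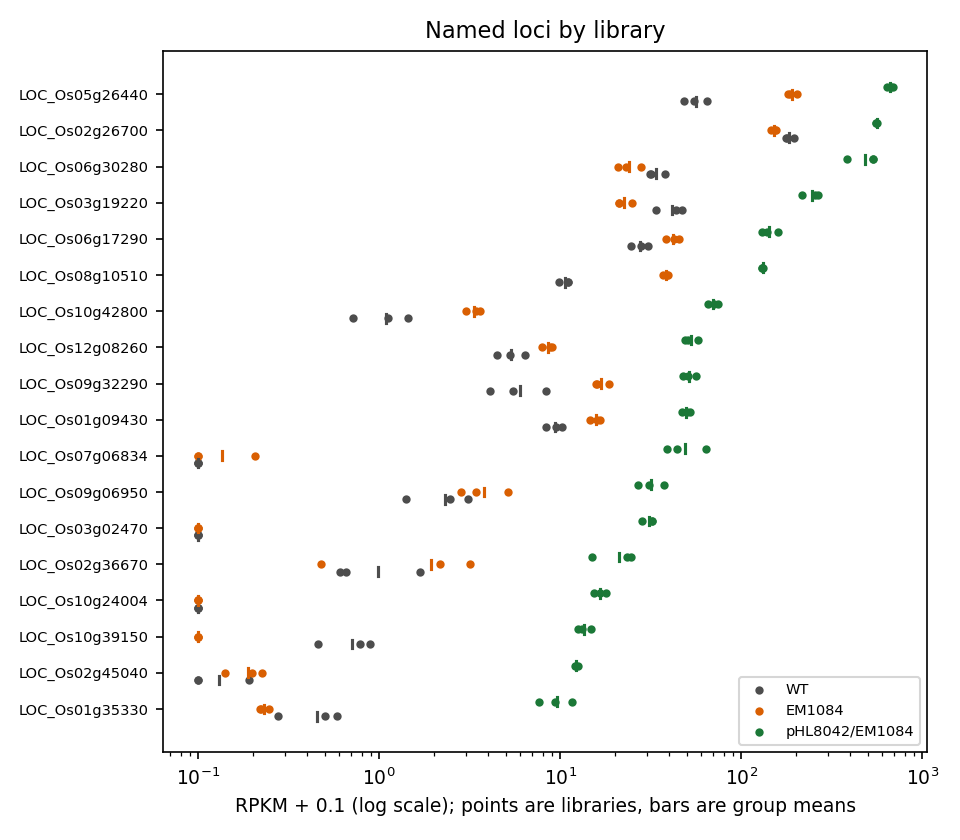
RPKM + 0.1 on a log scale for the 10 members with the highest complemented mean and the 10 with the largest ratio of complemented to higher other mean after adding 1 RPKM (2 loci are in both sets). Points are libraries and short bars are group means, and the complemented libraries (green) lie to the right of every WT and EM1084 library at each locus.

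The rule did not use the difference between EM1084 and WT, which was therefore tested with limma on log2(RPKM + 1) over 15450 loci. It does set a ceiling on both means, so the members' shares are not those of a random set and are given as a description. The EM1084 mean was the higher of the other means at 74 members, while 90.5% of the loci with a complemented mean of at least 5 RPKM had a higher mean in EM1084 than in WT. On RPKM as deposited, 54 of the 100 members were called higher in EM1084 (82.7% of all loci tested) and 15 were called lower (5.33% of all loci tested), at a Benjamini-Hochberg adjusted p under 0.05. The median log2 difference was 0.57 over the members and 1.06 over all loci tested. This shift of all loci went with the scaling, and under median-of-ratios scaling the median over all loci was 0.10. There 19 members were called higher (32.6% of all loci) and 40 lower (26.4% of all loci), and 8 members were called on opposite sides by the 2 scalings. Quantile normalization gave 16 members higher (30.9% of all loci) and 43 lower (25.3% of all loci). Of the members 73 passed the filter on low values through WT and EM1084 libraries alone, and the other 27 passed only through the complemented line, where they are high, so no support is drawn from their tests. Of the 73, 46 were called higher and 10 lower as deposited, beside 84.2% and 5.43% of the 14587 loci that passed the same way. After median-of-ratios scaling 14 of the 73 were called higher and 31 lower, beside 33.6% and 27.2% of those loci.

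Both as deposited and after median-of-ratios scaling, 19 of the 100 members were higher in EM1084 than in WT, next to 32.6% of all loci tested, and 14 of the 19 passed the filter on WT and EM1084 alone. Their medians were 0.300 RPKM in WT, 3.08 in EM1084 and 12.9 in the complemented line. LOC_Os11g21804 (chromosome 11, 12510077 to 12511257, minus strand) had the largest log2 difference in RPKM as deposited. It read 0.227, 0 and 0 RPKM in WT, 3.37, 4.90 and 5.83 in EM1084, and from 11.3 to 20.8 in the complemented line (EM1084 against WT, log2 fold change 2.39, SE 0.22, limma adjusted p = 3.1e-07). LOC_Os05g08910 (chromosome 5, 4934567 to 4935229, minus strand) was listed at 0 in every WT library. It read 3.53, 3.88 and 2.32 RPKM in EM1084, against 18.8, 25.7 and 21.8 in the complemented line (EM1084 against WT, log2 fold change 2.07, SE 0.17, limma adjusted p = 1.1e-07). LOC_Os06g30310 (chromosome 6, 17488832 to 17501184, plus strand) read 1.68, 2.00 and 2.22 RPKM in WT, 10.7, 11.2 and 10.7 in EM1084, compared with 33.8, 38.0 and 42.0 in the complemented line (EM1084 against WT, log2 fold change 2.00, SE 0.12, limma adjusted p = 5.7e-09). These differences were 1.85, 1.62 and 0.90 on the log2 scale with median-of-ratios scaling. At each the WT, EM1084 and complemented libraries formed 3 levels without overlap. LOC_Os05g26440 and LOC_Os08g10510, described above, belong to the same group, with log2 fold changes of 1.76 (SE 0.10, limma adjusted p = 4.4e-09) and 1.77 (SE 0.09, limma adjusted p = 9.6e-10), which were 0.39 and 0.46 under median-of-ratios scaling.

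Under the same pair of scalings, 15 of the 100 members were lower in EM1084 than in WT, next to 5.33% of all loci tested, and 10 of the 15 passed the filter on WT and EM1084 alone. Their medians were 2.22 RPKM in WT, 0.581 in EM1084 and 12.5 in the complemented line. LOC_Os04g27800 (chromosome 4, 16426989 to 16428906, minus strand) had the largest log2 difference in RPKM as deposited, on few reads, and it entered the test only through its complemented level. It read 3.01, 3.09 and 0.549 RPKM in WT, from 10, 9 and 1 reads. EM1084 had 0, 2 and 0 reads at this locus, against 10.0, 9.98 and 17.3 RPKM in the complemented line. Its log2 fold change of -1.39 (EM1084 against WT, SE 0.34) is given as a description, and no support is drawn from its test. LOC_Os07g36800 (chromosome 7, 22045994 to 22048316, plus strand) read 8.23, 5.53 and 4.73 RPKM in WT, 2.14, 1.80 and 1.98 in EM1084, against 25.6, 30.6 and 30.8 in the complemented line (EM1084 against WT, log2 fold change -1.24, SE 0.16, limma adjusted p = 9.9e-06). LOC_Os07g09760 (chromosome 7, 5195696 to 5200918, plus strand) read 1.28, 1.84 and 1.12 RPKM in WT, 0.142, 0.0667 and 0.104 in EM1084, compared with 6.48, 5.95 and 5.87 in the complemented line (EM1084 against WT, log2 fold change -1.12, SE 0.15, limma adjusted p = 1.2e-05). These differences were -1.94, -2.29 and -1.65 on the log2 scale with median-of-ratios scaling, so the order of these loci depends on the scaling, and none of the 3 then met the membership thresholds. In these 3 loci, in RPKM as deposited, the mutant was the lowest genotype. LOC_Os06g30280, LOC_Os03g19220 and LOC_Os02g26700 belong here too, with log2 fold changes of -0.49, -0.86 and -0.27 (limma adjusted p = 0.0058, 2.9e-05 and 0.0033), which became -1.82, -2.19 and -1.64 with median-of-ratios scaling. Of the 15 loci 4 met the membership thresholds under median-of-ratios scaling, compared with 17 of the 19 that were higher in EM1084. That scaling divides WT values by 0.565 to 0.607 and EM1084 values by 1.52 to 1.54, and so raises WT relative to the complemented line.

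**Figure D4:**
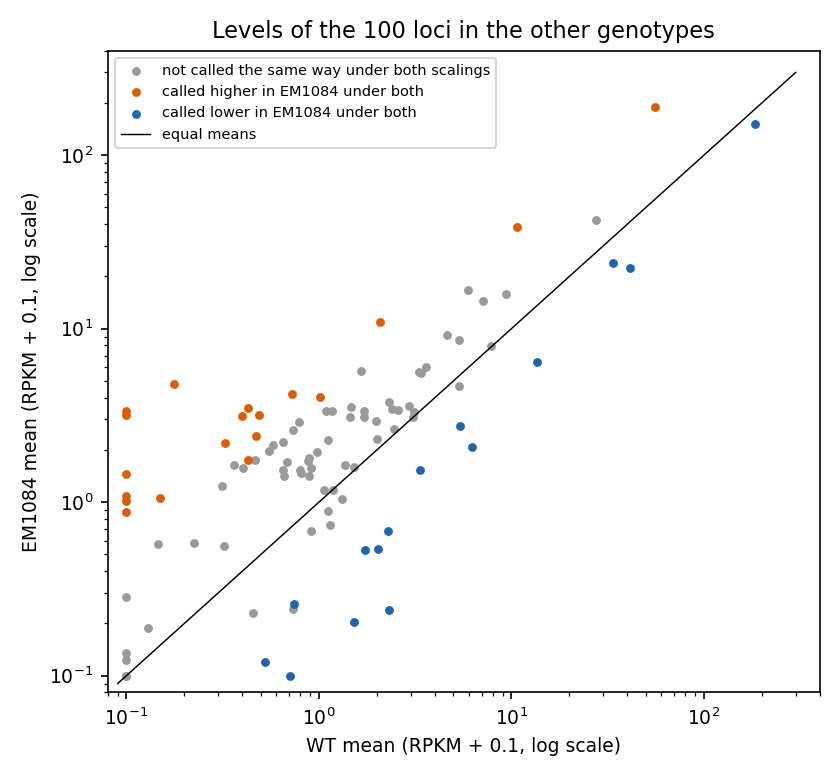
WT mean against EM1084 mean of the 100 members, in RPKM + 0.1 on log scales with a line of equal means. The 19 loci called higher in EM1084 under both scalings are orange, the 15 called lower are blue, and the 66 others are grey. Of the 19 and the 15, 14 and 10 passed the filter on WT and EM1084 alone.

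The members were spread over all 12 chromosomes. There were 12 each on chromosomes 1, 6 and 7, 11 on chromosome 12, 10 each on chromosomes 3 and 10, and 3 on chromosome 8. As a share of the loci with a complemented mean of at least 5 RPKM, they ran from 0.591% on chromosome 8 and 0.657% on chromosome 4 to 2.56% on chromosome 10 and 2.90% on chromosome 12. Another member lay within 50 kb at 4 members, in 2 pairs on chromosome 6. In the far denser set of 7593 loci 90.9% had such a neighbour within their set. This share rises with the size of the set, so the 2 values do not show whether the members lie sparsely or densely. On chromosome 2, which carries OsTudor-SN, 9 members were found, and the nearest, LOC_Os02g33070, lay 0.543 Mb away. Its levels were 1.56 ± 0.32 RPKM in WT, 5.62 ± 1.55 in EM1084 and 19.3 ± 1.72 in the complemented line.

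The first pair, LOC_Os06g01850 (chromosome 6, 479178 to 481669) and LOC_Os06g01870 (489916 to 490694), lies on the minus strand with a gap of 8.2 kb and no listed locus between. LOC_Os06g01850 read 0.768, 1.02 and 0.117 RPKM in WT, 1.90, 2.49 and 3.11 in EM1084, against 13.5, 14.9 and 14.4 in the complemented line. LOC_Os06g01870 rested on few reads, with 5, 0 and 0 in WT, 4, 23 and 3 in EM1084, compared with 56, 37 and 33 in the complemented line. The next locus on the far side, LOC_Os06g01890, had 0.0623 ± 0.11, 1.79 ± 0.47 and 0.0750 ± 0.065 RPKM in WT, EM1084 and the complemented line, so it did not share their order.

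The second pair, LOC_Os06g30280 and LOC_Os06g30310, lies 17.3 kb apart on opposite strands, with LOC_Os06g30290 between. That locus stood at 0.0439 ± 0.076 RPKM in WT, 0.180 ± 0.18 in EM1084 and 1.86 ± 0.53 in the complemented line, below the level threshold. The locus before the pair, LOC_Os06g30270, was listed at 0 in WT and EM1084, and its complemented mean was 0.444 ± 0.61 RPKM. The locus after it, LOC_Os06g30320, had 2.26 ± 0.20, 3.19 ± 0.37 and 1.80 ± 0.76 RPKM in the same order of genotypes.

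**Figure D5:**
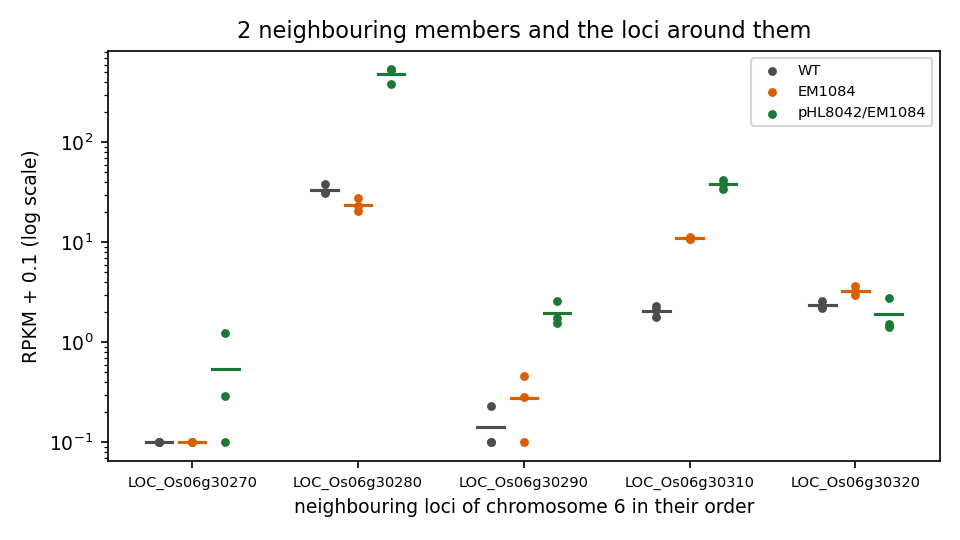
RPKM + 0.1 on a log scale for the pair LOC_Os06g30280 and LOC_Os06g30310 of chromosome 6, the locus between them and 1 locus on either side. Points are libraries and short bars are group means, and the complemented mean is the highest at every locus except LOC_Os06g30320, where it was 1.80 RPKM against 3.19 in EM1084.

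Transcript lengths derived from the RPKM steps had a median of 1299 bases over the members, from 315 to 7957, and of 1739 bases over the 7593 loci with a complemented mean of at least 5 RPKM. At 24 members the derived length equalled the whole span of the locus, as for a locus listed without introns, compared with 9.30% of those 7593 loci. Of these 24 members 10 were in the class under 1 RPKM in both other genotypes, which has 19 members in all. LOC_Os07g06834, LOC_Os10g24004 and LOC_Os02g45040 are of this kind, with lengths of 1248, 802 and 3146 bases. Minus-strand loci numbered 54, and 49.4% of all loci lie on that strand. Another listed locus on the opposite strand overlapped 4 of the 100 members. Among those 7593 loci 4.29% overlapped another listed locus on either strand, a similar share. The sources used here do not give whether reads were counted by strand. At LOC_Os10g14180 (0.327 ± 0.061, 1.65 ± 0.25 and 17.1 ± 2.21 RPKM in WT, EM1084 and the complemented line) the overlapping LOC_Os10g14170 was listed at 0 in WT and EM1084 and had a mean of 1.98 RPKM in the complemented line. LOC_Os10g14194, which also overlaps it, had 0.0770, 0.855 and 0 RPKM in the same order. The loci overlapping the other members had complemented means of 0.0215, 0.395 and 0.520 RPKM, each below its EM1084 mean. Reads of such overlapping loci cannot be told apart if strand was not used.

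Among the complemented libraries the members had a median coefficient of variation of 11.6%, and the 7593 loci one of 9.97%. It exceeded 25% at 8 members. The 3 members with the highest ratio of highest to lowest complemented library had ratios of 2.70, 2.40 and 1.90. LOC_Os02g01580 (chromosome 2, 327500 to 330456, minus strand) came first, at 4.47, 3.38 and 9.11 RPKM from 202, 156 and 388 reads, with no read in WT. LOC_Os11g02369 (chromosome 11, 693419 to 693864, plus strand) read 7.29, 3.04 and 6.25 RPKM from 47, 20 and 38 reads. LOC_Os12g02210 (chromosome 12, 690489 to 691172, minus strand) read 5.35, 10.1 and 6.61 RPKM from 66, 128 and 77 reads. For these 3 loci a single complemented library stood apart from the other two, in a different library for LOC_Os02g01580 than for the others. LOC_Os02g01580 and LOC_Os11g02369 did not meet the level threshold after median-of-ratios scaling, with complemented means of 4.85 and 4.84 RPKM.

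The same thresholds, turned to the other genotypes, gave 531 loci high in EM1084 alone and 85 high in WT alone. These counts moved with scaling, to 169 and 425 under median-of-ratios scaling, while the count for the complemented line was 83. Median-of-ratios scaling kept 63 of the 100 members, quantile normalization kept 71, and 61 were kept by both. The members with means under 1 RPKM in both other genotypes kept 14 of 19 under median-of-ratios scaling, those under 1 in WT alone 26 of 33, those at 1 RPKM or more throughout 21 of 40, and those under 1 in EM1084 alone 2 of 8. The loci lost from the class under 1 RPKM in both failed only the level threshold. Their scaled complemented means were 4.43 to 4.98 RPKM and still more than 3 times the higher other mean. That scaling divides complemented values by 1.08 to 1.21. When each of the 9 libraries was left out in turn, 80 members met the thresholds every time.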

How the data were processed

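RNA of dehulled seeds was sequenced from ScriptSeq v2 libraries, per the labels' protocols. The authors deposited RPKM values with 1 column per library. The sources used here do not give the aligner, read counter, genome build or annotation release. Coordinates are as the table gives them. Mapped totals, transcript lengths and read numbers were derived from the RPKM steps as the smallest whole numbers. All 281367 values came out whole within 0.001, which is largely imposed because lengths were chosen to make them whole. When the derived reads of 2874 highly counted loci were multiplied by unrelated factors, 0 stayed whole in all libraries. That outcome was fixed in advance, so neither result tests the derived numbers. The members, lists and tests were chosen with earlier results of these data known.

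Group means of RPKM as deposited defined the members. EM1084 was compared with WT in limma 3.58.1 (R 4.3.3; trend and robust) on log2(RPKM + 1), with all 9 libraries in 1 fit. Loci with at least 1 RPKM in at least 3 libraries entered (15450, leaving 15813 untested), tests were two-sided, and p-values were Benjamini-Hochberg adjusted over all loci tested. The procedure was run on simulated data in which a small part of the loci changed and all groups otherwise shared their means. That setting lacks the shift of all loci between EM1084 and WT, so it does not test the calls under such a shift. The ± sign denotes the SD over n = 3 libraries, and whether repeats came from separate plants is given only as biological repeats. Named members were the 10 highest, the 10 with the largest ratio after adding 1 RPKM, neighbours within 50 kb, the 3 largest called differences in each direction between EM1084 and WT, and the 3 with the highest ratio of highest to lowest complemented library. LOC_Os02g33070, LOC_Os10g14180 and any locus next to a pair or overlapping a member, and the listed marker loci, were named after their values were seen. The marker lists (endosperm storage, green tissue, embryo and aleurone, alpha-amylase, heat shock) were written by locus from general knowledge of rice; 3 of 7 alpha-amylase loci are in the table, and all loci of the other lists. Alternatives were 2 other scalings, other thresholds, pseudocounts and filters, limma-voom, a replicate block and leaving out each library.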

Additional observations from a re-analysis of the deposited data

How the results depend on the processing

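The 100 members depended on the thresholds by construction. The count was 262 at a ratio of 2, 45 at a ratio of 5, 295 at a minimum mean of 1 RPKM and 54 at a minimum of 10 RPKM. Median-of-ratios scaling gave 83 loci, quantile normalization 104, group medians 102, and adding 1 RPKM before the ratio 70, while leaving out each library in turn gave 99 to 108. Within 100 kb, 8 members had another member as a neighbour. Between EM1084 and WT, 13604 loci were called, 13237 to 13645 without each library in turn, 8679 under quantile normalization and 8217 with a minimum of 5 RPKM, where fewer loci entered. Of the members 54 were higher and 15 lower, and these counts became 19 and 40 with median-of-ratios scaling and 16 and 43 with quantile normalization, while leaving out a library gave 49 to 53 and 14 to 16. With the replicate block 13595 loci, 54 members higher and 15 lower were called. Same-numbered libraries did not deviate together (9 correlations from -0.03 to 0.06, against -0.08 to 0.08 for other pairs). No shared deviation was thus seen, which cannot show whether the numbers pair the samples by design. The 6 loci named for this comparison kept their direction and call in all 108 alternative values. Their choice by the largest called differences of the same fit largely fixes this, so no support is drawn from it. LOC_Os04g27800 moreover entered the test only through the complemented line. For the 29 named members, alternatives chosen after seeing the data (2 scalings and each library left out) gave 319 ratios, of which 50 moved by more than 1 SD between libraries. None turned below 1, which the choice of members by this ratio largely fixes. Low WT depth limits the smallest values, since 28 members had 10 reads or fewer over the 3 WT libraries.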
